A study of Oryza sativa with 6 samples.

Results

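Strigolactones are carotenoid-derived hormones that restrain shoot branching, shape root growth and, when released from roots, stimulate arbuscular mycorrhizal fungi. In rice their synthesis starts from beta-carotene through the isomerase D27, the cleavage enzymes D17 and D10 and cytochrome P450 enzymes of the MAX1 family. The hormone is perceived by the receptor D14, which with the F-box protein D3 marks the repressor D53 for degradation. The 7 loci described here, chosen by identifier, were D27 (Os11g0587000, chromosome 11), D17 (Os04g0550600, chromosome 4, deposited as HTD1), D10 (Os01g0746400, chromosome 1), the MAX1 homologue Os900 (Os01g0700900, chromosome 1, deposited as SLB1), D14 (Os03g0203200, chromosome 3), D3 (Os06g0154200, chromosome 6) and D53 (Os11g0104300, chromosome 11). All 7 were among the 36960 features of the deposited tables, and all 7 had enough counts to be tested with 25531 features in all.

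The libraries came from rice roots, 3 of wild type (WT) and 3 of the mutant line mads61-3, which is altered in the MADS-box transcription factor gene OsMADS61. Both groups were grown as seedlings in tanks of nutrient solution with 2.5 mM nitrate and no fungal partner, and the study asked how OsMADS61 acts on nitrate transport under these conditions. The labels give neither the cultivar, the nature of the mutant allele nor the number of plants behind a library, and the mutant group is 1 line. Nothing says that replicates came from separate tanks, so p-values measure the spread between these libraries, which may be technical.

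Total read counts ran from 24145708 to 34179150 per library. The library labelled WT replicate 3 stood apart from its group in the targeted gene: OsMADS61 was at 552 and 573 CPM (counts scaled to the effective library size) in WT replicates 1 and 2, at 2.38 in the library labelled WT replicate 3, and the mutants had 6.24, 2.41 and 4.63. The counts of called genes, the list medians and the log2 fold changes of the 7 loci are therefore given with and without that library, as are those of most other genes named, and values with no such remark count it as WT. In the whole table edgeR called 319 features at an adjusted p under 0.05, of which 83 were higher and 236 lower in the mutant. The split was 1119 higher and 1344 lower in DESeq2, and 192 higher and 315 lower when limma was run on log2(FPKM + 1). All 4 root markers were detected in every library, with summed levels of 1632 to 3093 CPM in WT and 3025 to 7092 in the mutant. Of 4 green tissue markers (Rubisco small subunits and chlorophyll-binding proteins), all were detected in every library except for RBCS3 and CAB2R, which had 0 counts in the library labelled WT replicate 3, and their summed level was 1.14 to 15.8 CPM in WT and 13.97 to 172 in the mutant. PT11, a phosphate transporter of arbuscule-containing root cells, had 0 counts in 5 libraries and 19 counts in mutant replicate 3, and NPF4.5, a mycorrhizal nitrate transporter, had 0 to 35 counts.

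None of the strigolactone genes passed the test. By edgeR 0 of 7 were called, where 1.25% of all tested features were, and with the library labelled WT replicate 3 set aside it was again 0 of 7, against 2.76% of features. With all libraries the same test did not call OsMADS61 either (log2 -6.40, SE 1.71, adjusted p = 0.129), so a gene not called may still differ. With the library labelled WT replicate 3 set aside OsMADS61 was called lower (log2 -6.99). The unadjusted p was under 0.05 for 2 of the 7, D10 (higher in the mutant, as were 7.86% of all features) and D14 (lower, as were 8.68%), where 16.5% of features passed in either direction. With the library labelled WT replicate 3 set aside it was under 0.05 for 4, D10 (higher) and D17, D14 and D53 (lower), against 19.4% of features. DESeq2 called 1, D10, against 8.46% of features, and limma-voom called 0 against 1.02%. D10 was the member without overlap between the mutant and WT libraries, which held for 22.7% of tested features, 11.4% with the mutant higher. Of the log2 fold changes (mutant over WT) 3 were positive and 4 negative, with a median of -0.75 beside -0.04 over all features. That median rested on 1 library: it was -0.035 with the library labelled WT replicate 3 set aside (0.0031 over all features), where Os900 turned to 1.30. D17, D14 and D53 were then farther below 0, at -1.14, -0.999 and -1.20. With all libraries the median was -0.74 in DESeq2 and -0.48 in limma on log2(FPKM + 1), beside -0.0256 and 0.0621 over all features. It was -0.26 in limma-voom and -0.18 in limma on log2(FPKM + 0.1), beside 0.0174 and 0.0895. In limma-voom and limma on log2(FPKM + 0.1) the median was the value of Os900 (SE 1.46 and 1.32). In bulk roots, fewer cells of a type and less RNA per cell cannot be told apart.

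**Figure D1:**
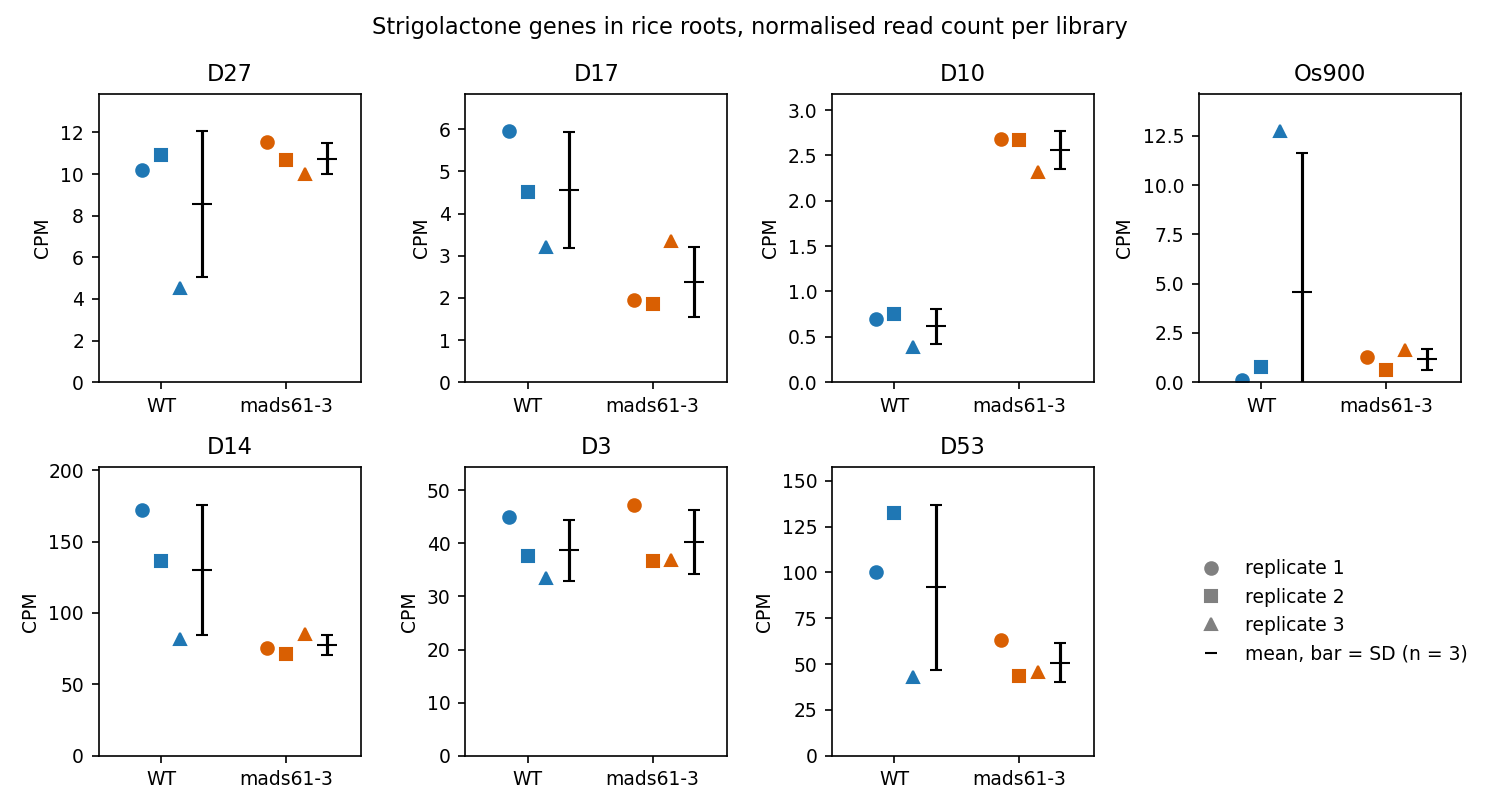
Normalised read count (CPM) of the 7 strigolactone genes in each library of WT and mads61-3 roots, each panel with its own axis from 0. Symbols mark replicates, and the black mark and bar give the mean and SD of 3 libraries (the bar of Os900 in WT is cut at 0). D10 lies at 0.391 to 0.752 CPM in WT and 2.31 to 2.68 in the mutant, while the other genes overlap between groups.

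D10 encodes the carotenoid cleavage dioxygenase CCD8, which makes carlactone, the common precursor of strigolactones. WT replicates 1 to 3 held 16, 19 and 11 counts and the mutant replicates 92, 81 and 63, or 0.700, 0.752 and 0.391 CPM against 2.68, 2.67 and 2.31. Every mutant library was above every WT library, including the one labelled WT replicate 3, which had the lowest value of all. Group means (± SD, n = 3, as for all such values) were 0.615 ± 0.195 CPM for WT and 2.56 ± 0.211 for mads61-3, a ratio of 4.16. The log2 fold change of 2.05 (SE 0.42, 95% interval 1.06 to 3.04) was outside the threshold in edgeR (adjusted p = 0.0697) and within it in DESeq2 (log2 2.07, adjusted p = 0.000417). Over 14 alternative settings its adjusted p ran from 0.000417 to 0.275, and with the library labelled WT replicate 3 set aside it was 0.08 (log2 1.81). The summed green tissue markers were at 1.14 to 15.8 CPM in WT and 13.97 to 172 in the mutant, and their part in the values of D10 was not tested.

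D17 encodes CCD7, the enzyme that acts just before D10. Across WT replicates 1 to 3 it had 5.95, 4.51 and 3.20 CPM and the mutant replicates 1.95, 1.85 and 3.34. Mutant replicate 3 was slightly above the library labelled WT replicate 3, so the groups overlapped, and the other mutant libraries were below all WT libraries. The group means were 4.56 ± 1.38 and 2.38 ± 0.833 CPM, and the log2 fold change (-0.94, SE 0.41, 95% interval -1.90 to 0.03) did not pass in edgeR (adjusted p = 0.312). The fold changes of these consecutive enzymes thus had opposite signs in the same libraries, and D17 had the same sign under all 14 alternatives (-1.14, adjusted p = 0.203, with the library labelled WT replicate 3 set aside).

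D27, the isomerase at the head of the pathway, had group means that differed in opposite directions in the deposited tables, and neither difference passed. In CPM, WT replicates 1 to 3 had 10.2, 10.9 and 4.52 and the mutant replicates 11.5, 10.7 and 10.02. The library labelled WT replicate 3 was low, and the others lay close together. The means were 8.55 ± 3.51 and 10.7 ± 0.765 CPM, and the log2 fold change was 0.33 (SE 0.37, 95% interval -0.54 to 1.20, edgeR, adjusted p = 0.713), or 0.02 with that library set aside. In the authors' FPKM (fragments scaled to length and library size) WT replicates 1 to 3 had 5.45, 6.33 and 2.21 and the mutant replicates 4.19, 4.69 and 3.05, means of 4.67 ± 2.17 and 3.98 ± 0.841. Limma on log2(FPKM + 1) gave -0.11 (SE 0.36, adjusted p = 0.915). WT replicates 1 and 2 were above every mutant library in FPKM, and no FPKM fit was run without the library labelled WT replicate 3.

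The length that ties a feature's count to its FPKM can be computed from both tables, as the count divided by the FPKM and by the library total. For D27, WT replicates 1 to 3 gave 1596, 1805 and 2099 bases and the mutant replicates 2764, 2543 and 3167. Every mutant library had a longer implied length, by a ratio of means of 1.54. Among 17554 tested features with at least 50 counts in every library, 6 (0.0342%) had a ratio at least as high, and 966 (5.5%) had no overlap between groups in either direction. The other members moved less between groups. D10 (1867 to 1994 bases in WT against 1818 to 1847 in the mutant) and D3 (2658 to 2751 against 2518 to 2647) had shorter implied lengths in every mutant library, and Os900 ran from 1809 to 2512 over all libraries. D17 lay between 2145 and 2200.0 bases, D14 between 1603 and 1665, and D53 between 3606 and 3649. This property of D27 was picked after its values were seen, and neither table gives the transcript or feature lengths used.

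The MAX1 homologue Os900 is a carlactone oxidase of the CYP711A family. WT replicates 1 to 3 held 3, 20 and 358 counts and the mutant replicates 43, 18 and 44, or 0.131, 0.792 and 12.7 CPM against 1.25, 0.594 and 1.62. Nearly all WT counts were in the library labelled WT replicate 3, while WT replicate 1 was below the mutant range and WT replicate 2 within it. The 4 root markers also differed among these libraries. RCc3 was at 28.5, 216 and 940 CPM in the WT replicates and 56.0 to 77.0 in the mutants. The other 3 ran the opposite way over WT replicates 1 to 3, with 1613, 869 and 525 CPM for LSI1, 1443, 542 and 311 for LSI2 and 8.80, 5.82 and 0.427 for RSOsPR10. Their mean levels were higher in the mutant, that of RCc3 lower, and the part of these markers in the values of Os900 was not tested. The log2 fold change was -1.98 (SE 1.38, 95% interval -5.25 to 1.29, edgeR, adjusted p = 0.532) with all libraries and 1.30 (adjusted p = 0.488) with that library set aside. In no other member did leaving out 1 library turn the sign of a log2 fold change beyond 0.1, as the plot of log2 fold changes with each library left out shows.

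**Figure D2:**
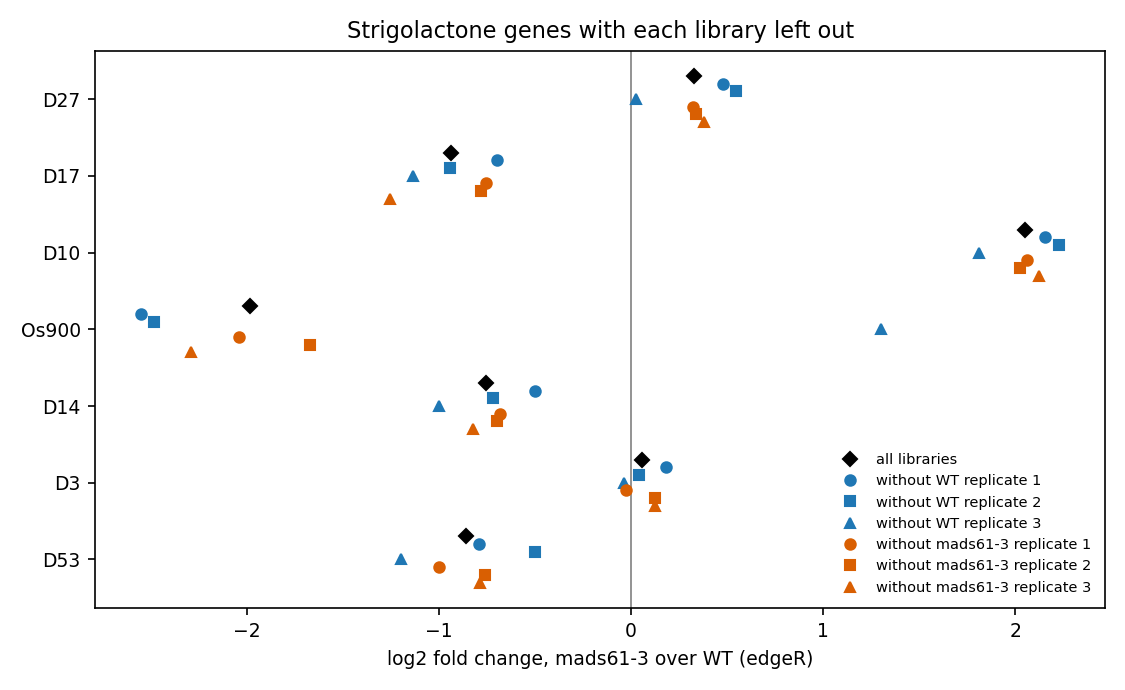
Log2 fold change (mads61-3 over WT, edgeR) of each strigolactone gene with all libraries and with each library left out in turn; colours mark the group and symbols the replicate left out. Os900 moves from -1.98 to 1.30 without the library labelled WT replicate 3, and D10 stays between 1.81 and 2.23.

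Rice has 5 MAX1 homologues in all, and their mix differed between libraries. Os900, Os1400 (deposited as SLB2) and Os1500 have neighbouring locus numbers on chromosome 1, so the split of reads between such similar copies is uncertain. Os1900 (Os02g0221900) and Os5100 (Os06g0565100) together carried most of the family's summed FPKM in every library, at 98.4%, 91.5% and 53.7% in the WT replicates and 75.5%, 83.2% and 69.4% in the mutant ones. Os900 made up 0.356% and 2.28% of the sum in WT replicates 1 and 2, 34.2% in the library labelled WT replicate 3, and the mutant replicates had 5.15%, 2.48% and 7.47%. Os1400, an orobanchol synthase, had 21 counts in the library labelled WT replicate 3 and 0 counts in the other libraries, where 3 counts, the limit a count of 0 allows, stand for 0.0875 to 0.131 CPM. The share of Os1500 was 1.28%, 6.27% and 10.3% for the WT libraries and 19.3%, 14.3% and 23.1% for the mutants.

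In CPM none of the other MAX1 homologues passed. Os5100, another P450 of the family, was the homologue whose groups did not overlap, as in 11.3% of tested features with the mutant lower. The WT libraries had 11.9, 15.8 and 10.03 CPM and the mutants 9.83, 9.41 and 5.32, with a log2 value of -0.62 (SE 0.33) that missed the threshold (edgeR, adjusted p = 0.413), or -0.76 (adjusted p = 0.306) with the library labelled WT replicate 3 set aside. The log2 fold change of Os1900 was -0.33 (SE 0.30, adjusted p = 0.647) and that of Os1500 1.10 (SE 0.71, adjusted p = 0.502), with 0.350 CPM in WT replicate 1 and 1.74 to 4.55 in the other libraries. With that library set aside these were -0.48 (adjusted p = 0.437) and 1.88 (adjusted p = 0.213).

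**Figure D3:**
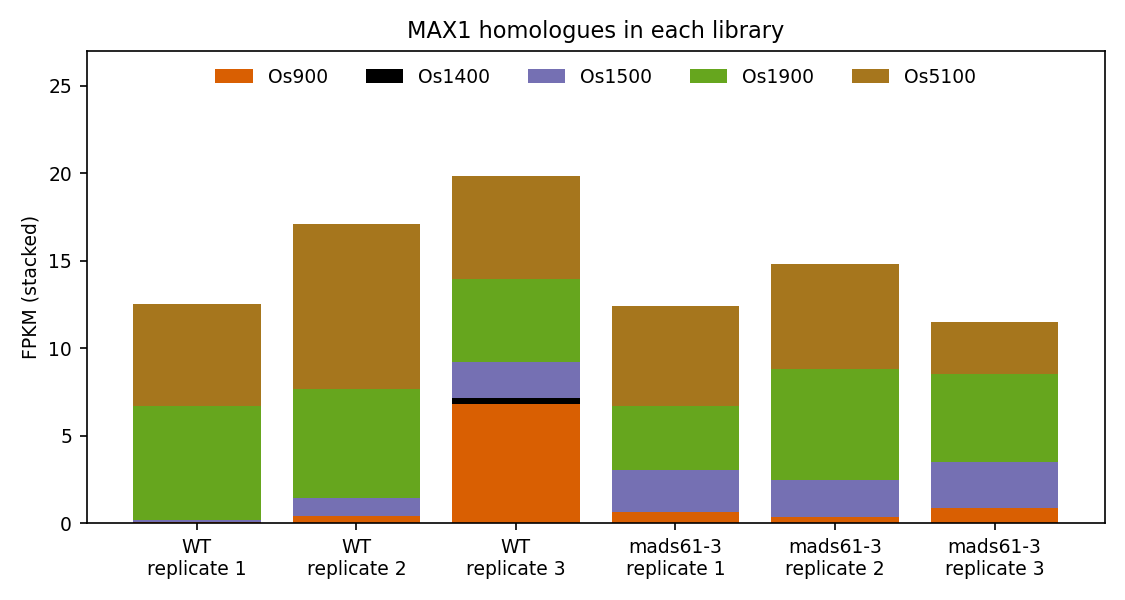
Stacked deposited FPKM of the 5 MAX1 homologues in each library. The library labelled WT replicate 3 has the highest sum (19.9) and is the one in which Os900 (6.79 FPKM) takes the greatest share, against 11.5 to 17.1 for the sum in the other libraries.

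D14, the alpha/beta hydrolase that binds and cleaves strigolactone, had the highest FPKM of the 7 genes. Its WT replicates 1 to 3 had 172, 137 and 81.9 CPM and the mutant replicates 75.4, 71.5 and 85.0. WT replicates 1 and 2 were above all mutant libraries, and the library labelled WT replicate 3 lay within the mutant range. The group means were 130.3 ± 45.6 and 77.3 ± 6.94 CPM, and the log2 fold change (-0.75, SE 0.30, 95% interval -1.46 to -0.05) did not pass in edgeR (adjusted p = 0.274). With that library set aside it was -0.999 (SE 0.21, adjusted p = 0.0668).

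D53, a repressor related to Clp ATPases that is degraded once the hormone is bound, had a like pattern. WT replicates 1 to 3 had 100.1, 132 and 43.1 CPM and the mutant replicates 62.9, 43.4 and 45.5. Here the library labelled WT replicate 3 was below every mutant library, while the other WT libraries were above them. The group means were 91.8 ± 45.1 and 50.6 ± 10.7 CPM, and the log2 fold change was -0.86 (SE 0.41, 95% interval -1.83 to 0.12, edgeR, adjusted p = 0.36), or -1.20 (adjusted p = 0.0672) with that library set aside. D53 has a close copy on chromosome 12, D53-like (Os12g0104300), whose reads can be split between the loci in an uncertain way. D53 held 53.8%, 53.5% and 47.8% of the pair's counts in the WT libraries and 49.3%, 44.5% and 50.8% in the mutants. The log2 fold change of D53-like itself was -0.61 (SE 0.35, adjusted p = 0.445), or -0.89 (adjusted p = 0.123) with the library labelled WT replicate 3 set aside, and the summed counts of both, a feature added after the data were seen, gave -0.73 (SE 0.38, adjusted p = 0.402).

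D3, the F-box subunit through which D14 reaches the ubiquitin ligase, had similar means in both groups. Its WT replicates had 44.9, 37.7 and 33.4 CPM and the mutant replicates 47.3, 36.7 and 36.9, so the ranges overlapped. The group means were 38.7 ± 5.81 and 40.3 ± 6.06 CPM, and the 95% interval of the log2 fold change (0.06, SE 0.21) ran from -0.44 to 0.56 (edgeR, adjusted p = 0.922). With the library labelled WT replicate 3 set aside the value was -0.035 (adjusted p = 0.958).

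Per length, signalling genes stood above synthesis genes in both groups. In WT the deposited FPKM were 75.8 ± 21.0 for D14, 24.6 ± 13.0 for D53, 13.8 ± 1.22 for D3, 4.67 ± 2.17 for D27, 2.41 ± 3.80 for Os900, 2.01 ± 0.439 for D17 and 0.312 ± 0.110 for D10. Among neighbours in that order D53 and D3, D27 and Os900, and Os900 and D17 overlapped over the libraries. In the mutant the order was D14 (49.0 ± 1.81), D3 (16.2 ± 2.69), D53 (14.3 ± 2.80), D27 (3.98 ± 0.841), D10 (1.44 ± 0.199), D17 (1.12 ± 0.326) and Os900 (0.623 ± 0.247), where D3 and D53, and D10 and D17, overlapped. D10 thus had the lowest mean of the 7 in WT, with every value below those of D17, and overlapped with D17 in the mutant. D14 was at the 94.1 percentile of mean FPKM among all features above 0, and D10 at the 31.5 percentile.

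Across the 6 libraries, the named genes whose pattern was most like that of a member were found by Pearson's r of log2(CPM + 1) among 6857 candidates, as a description without a test, since the points share the same libraries and fall into groups. For D10 these were OsbHLH113 (r = 0.982), OsARF10 (0.979), an auxin response factor, and PSBS2 (0.975), a photoprotection gene, with 39 candidates (0.57%) at 0.95 or more. For D14 they were OsBIPP2C1 (0.998), a protein phosphatase, OsDof16 (0.997) and OsABA1 (0.996), the zeaxanthin epoxidase of abscisic acid synthesis, with 112 candidates (1.63%) at 0.95 or more. For D53 they were SP1 (0.990), OsFRDL1 (0.979) and OsGATA13 (0.979), and for D17 OsMED15_1 (0.999), C10923 (0.997) and PEPCK (0.986). For D27 they were OsCIPK08 (0.987), qUVR-10 (0.979) and OsTCP5 (0.977), and for D3 OsRDCP3 (0.960), OsLOX8 (0.954) and OsMed5_2 (0.944). Os900 was most like OsSTA200 (0.998), Oshox28 (0.996) and OSRAC7 (0.995), in a pattern set by the library labelled WT replicate 3. Among pairs of members, the r largest in size were 0.93 for D14 with D17, -0.92 for Os900 with D27 and 0.86 for D14 with D53. For Os900 and D27 the library labelled WT replicate 3 stood apart, with the highest Os900 (12.7 CPM) and the lowest D27 (4.52 CPM).

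Of 14 other strigolactone and karrikin genes listed, 11 were tested, and edgeR called 0 of them higher and 0 lower. The unadjusted p was under 0.05 for 2, NSP1 and OsCKX9, both higher, beside 16.5% of all features. DESeq2 called 1 of 12 higher (NSP1), beside 8.46% of all features, and limma-voom called 0. Limma on log2(FPKM + 1) without a filter also called NSP1 higher (adjusted p = 0.0452), beside 117 of 32334 features called higher. With the library labelled WT replicate 3 set aside edgeR called 0, and the unadjusted p was under 0.05 for 4 higher (NSP1, NSP2, ZAS and Os1500) and 1 lower (D53-like), beside 19.4% of features. Of the 11, 7 log2 fold changes were positive and 4 negative, with a median of 0.23, which became 0.70 with that library set aside and 0.047 without mutant replicate 2. NSP1 (Os03g0408600, chromosome 3), a GRAS transcription factor required for strigolactone synthesis, had 9, 3 and 7 counts in the WT replicates against 85, 40 and 63 in the mutant ones. These were 0.394, 0.119 and 0.249 CPM against 2.48, 1.32 and 2.31, and every mutant library was above every WT library, as in 11.4% of tested features. The log2 fold change was 2.99 (SE 0.58, 95% interval 1.62 to 4.36) with adjusted p = 0.0637 in edgeR, 0.000239 in DESeq2, and 0.0864 in edgeR with the library labelled WT replicate 3 set aside. Its partner NSP2, with 2, 2 and 18 counts in the WT replicates against 41, 8 and 27 in the mutant ones, overlapped between groups (log2 1.56, SE 0.96, edgeR, adjusted p = 0.478). With the library labelled WT replicate 3 set aside the log2 fold change of NSP2 was 3.23 (SE 0.97, adjusted p = 0.144), with 2 counts in each remaining WT library.

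OsCKX9, a cytokinin oxidase gene induced by strigolactone in rice, had 0.613, 0.158 and 0.498 CPM in the WT replicates against 2.19, 0.594 and 1.32 in the mutant ones (log2 1.69, SE 0.70, edgeR, adjusted p = 0.297; 1.83, adjusted p = 0.316, with the library labelled WT replicate 3 set aside). ZAS, the zaxinone synthase gene, had 0, 0 and 18 counts in the WT replicates against 32, 24 and 17 in the mutant ones (log2 1.81, adjusted p = 0.544). All its WT counts were in the library labelled WT replicate 3, and with that library set aside it just missed the threshold (edgeR, adjusted p = 0.0505). ZAS was then at least 6.26-fold higher in the mutant, taking 3 counts per library as the limit for the WT libraries at 0. D14L, the rice homologue of the karrikin receptor KAI2, was at 34.0 ± 4.53 and 34.7 ± 0.829 CPM (log2 0.03, 95% interval -0.41 to 0.47; -0.048 with that library set aside). SMAX1, the repressor of the karrikin pathway, was at 68.0 ± 22.4 and 58.8 ± 12.1 CPM (log2 -0.21, SE 0.31, edgeR, adjusted p = 0.789; -0.44, adjusted p = 0.382, with it set aside). IPA1 (deposited as WFP), an SPL transcription factor to which D53 binds, was at 10.7 ± 5.64 and 12.6 ± 4.27 CPM (log2 0.23, SE 0.45, 95% interval -0.84 to 1.30, adjusted p = 0.849; 0.70, adjusted p = 0.42, with it set aside).

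**Figure D4:**
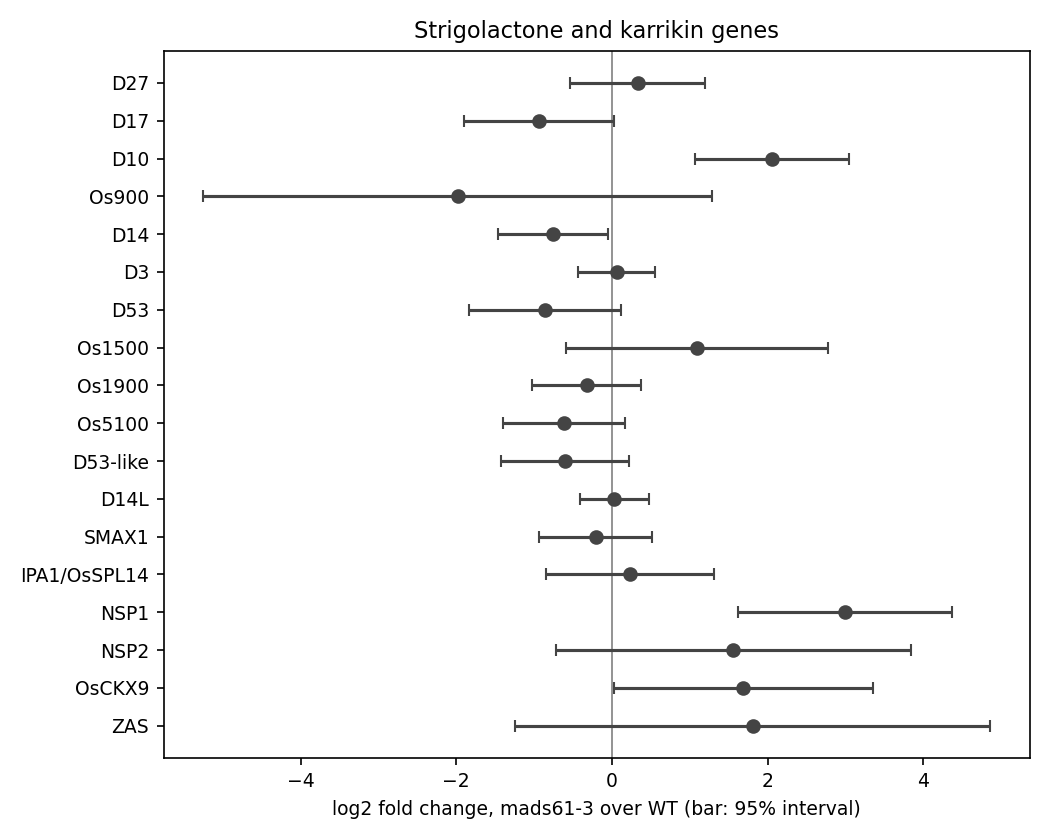
Log2 fold change (mads61-3 over WT, edgeR) of the 7 strigolactone genes and the 11 other tested genes of strigolactone and karrikin synthesis and signalling, with 95% intervals. D10 (2.05) and NSP1 (2.99) have intervals farthest above 0, and the interval of Os900 spans -5.25 to 1.29; none passed after adjustment over all features.

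Strigolactones draw on the plastid isoprenoid and carotenoid pathways, and 1 of 11 tested genes of these pathways was called higher and 0 lower, where 0.325% of all features were called higher and 0.924% lower. It was DXS3 (Os07g0190000, chromosome 7, deposited as OsDXS), a gene for the entry enzyme of plastid isoprenoid synthesis that also feeds diterpenoid synthesis. Its WT replicates had 0.744, 1.78 and 0.961 CPM and the mutant replicates 45.3, 12.2 and 20.4, and it rose by 4.48 on the log2 scale (SE 0.63, edgeR, adjusted p = 0.0318). It missed the threshold when WT replicate 2 was left out (adjusted p = 0.069) or any mutant replicate (0.137, 0.0522 and 0.137 for replicates 1, 2 and 3). DESeq2 called it as well (adjusted p = 8.42e-12), limma-voom and limma on log2(FPKM + 1) without a filter did not (adjusted p = 0.0592 and 0.0551), and with the library labelled WT replicate 3 set aside edgeR gave 4.35 (adjusted p = 0.047). The remaining 10 genes had log2 fold changes between -0.82 (PSY3, a phytoene synthase) and 0.60 (DXS1), and the list's median was 0.26 (0.22 with that library set aside). The unadjusted p was under 0.05 for DXS3 alone with all libraries, and with that library set aside for DXS3 and, as lower, PSY1, PSY3 and CRTISO, 4 of 11 beside 19.4% of features. PDS and ZDS, the desaturases after phytoene synthase, had higher values in every mutant library than in every WT library, at log2 0.32 (SE 0.19, adjusted p = 0.466) and 0.26 (SE 0.17, adjusted p = 0.495). With DXS3 these were 3 of 11 without overlap and higher in the mutant, beside 11.4% of tested features, and 0 were lower, beside 11.3%. CRTISO, the carotenoid isomerase, stood at 67.0, 50.1 and 31.6 CPM in the WT replicates against 32.6, 33.4 and 33.0 in the mutant ones (log2 -0.59, SE 0.29, adjusted p = 0.37; -0.83, adjusted p = 0.0872, without that library), the library labelled WT replicate 3 again lying at the mutant level. PDS, ZDS and CRTISO were singled out after their values were seen.

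**Figure D5:**
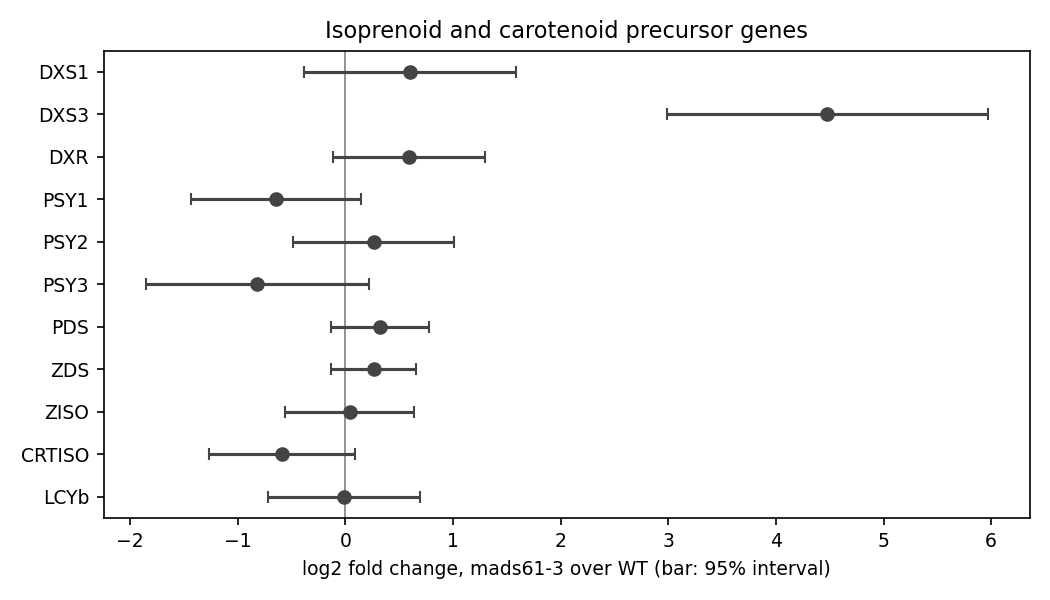
Log2 fold change (mads61-3 over WT, edgeR) of 11 isoprenoid and carotenoid precursor genes with 95% intervals. DXS3 at 4.48 is the gene that passed the test; the other 10 lie between -0.82 and 0.60.

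Phosphate shortage is known to raise strigolactone synthesis in rice roots, so markers of phosphate starvation were read in the same libraries. Of 7 tested, 0 were called by edgeR (1.25% of all features), while the unadjusted p was under 0.05 for 2 (16.5% of all features), PT2 (higher) and PT6 (lower), both of which DESeq2 called (8.46% of all features) and limma-voom did not. With the library labelled WT replicate 3 set aside edgeR called 1, PT6, as lower (2.76% of all features). The median log2 fold change was 0.12 with all libraries and -0.15 with that library set aside. PHR2, the central regulator, was at 116 ± 11.3 and 97.3 ± 11.2 CPM (log2 -0.26, SE 0.20, adjusted p = 0.579), and SPX1, a phosphate sensor, at 52.1 ± 21.2 and 57.1 ± 12.5 CPM (log2 0.13, SE 0.35, adjusted p = 0.891; -0.15, adjusted p = 0.831, without that library). PT2, a phosphate transporter, had 10.6, 11.4 and 11.6 CPM in the WT replicates against 96.8, 11.9 and 126 in the mutant ones. D10 was at 0.700, 0.752 and 0.391 CPM in the WT replicates and 2.68, 2.67 and 2.31 in the mutant ones. The part of the phosphate, root and green tissue markers in the values of the strigolactone genes was not tested.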

How the data were processed

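RNA-seq libraries of rice roots, 3 from WT and 3 from mads61-3, were analysed from 2 deposited tables. The first table holds the authors' raw read counts, whole numbers as deposited, and the second, in FPKM, holds values that the authors scaled to length and depth. The submitters' processing notes list, with no role given, HISAT2 2.0.5, StringTie 1.3.3, SAMtools 0.1.18, Picard 1.41, FastQC 0.11.9 and CASAVA 1.8.2. Those notes name a human genome build, whereas the features are rice loci. The sources used here do not give the rice annotation, the counting tool or its strand setting. No coordinates are therefore printed, chromosomes are those in the locus identifiers, and reads of overlapping or antisense genes cannot be told apart. Columns named mads61 with a number were read as replicates of line mads61-3.

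Counts were tested, two-sided, in edgeR 4.0.16 (R 4.3.3) with glmQLFTest after robust glmQLFit, TMM factors, filterByExpr at its defaults (minimum count 10, minimum total 15), group as the sole term and Benjamini-Hochberg adjustment over 25531 features. Adjusted p-values are from this test unless another is named. SE is the size of the log2 fold change over the square root of F. The 95% intervals use the test's total degrees of freedom, residual plus prior. Alternatives were DESeq2 1.42.0, limma-voom and limma 3.58.1 on log2(FPKM + 1) or log2(FPKM + 0.1) with a mean FPKM of at least 0.5 or no filter, other size factors, no count filter, a replicate block, and each library left out. The edgeR, DESeq2 and limma-voom fits were also run on simulated counts. Changes were set there only in genes of high counts, and no library departed from its group. Such a run does not bear on genes as low as D10 or on the library labelled WT replicate 3. No 2 libraries matched within sampling noise (chi-square per degree of freedom 24.7 to 309). For the library labelled WT replicate 3 it was 309 and 98.1 with WT replicates 1 and 2. With mutant replicates 1 to 3 it was 234, 159 and 252. Whether that library's label is right was not tested. Limits for counts of 0 cover counting error only.

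The members and lists were chosen with earlier results of these data known. List genes were written from memory by locus. Of the other strigolactone genes 1 was left out because its deposited symbol named another gene and 1 was not analysed here; 1 precursor gene was left out by symbol, and 1 phosphate marker and 1 green tissue marker were not analysed here. Named genes were the members, OsMADS61, called list genes or else the 2 most abundant of a list, strigolactone genes whose groups did not overlap, and the 3 most similar named genes of each member with a mean of at least 1 CPM; other list genes were named after their values were seen.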

Additional observations from a re-analysis of the deposited data

How the results depend on the processing

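Against 319 called features, DESeq2 called 2463, limma 507 on log2(FPKM + 1) and 543 on log2(FPKM + 0.1), the fit with a replicate block 81, and fits with 1 library left out 0 to 724: leaving out WT replicates 1, 2 and 3 gave 663, 107 and 724, and leaving out mutant replicates 1, 2 and 3 gave 0, 14 and 0 (unadjusted p under 0.05 for 1280 higher and 1361 lower features in the first and 1195 and 1413 in the last; other tools were not run on these subsets). Against 0 called strigolactone genes of 7, DESeq2 called 1 (8.46% of all features) and limma on log2(FPKM + 1) without a filter called 1 (311 of 32334 features), D10 in both. DESeq2 gave D10 a log2 value of 2.07 (adjusted p = 0.000417) and that limma fit 0.90 (adjusted p = 0.0496). The 0.90 is made smaller by the added 1, since D10 had mean FPKM of 0.312 in WT and 1.44 in the mutant. With the filter limma did not call D10 on log2(FPKM + 1) (adjusted p = 0.0614) or on log2(FPKM + 0.1) (1.93, adjusted p = 0.0677). The fits with 1 library left out called 0 each time. D27 had a negative log2 fold change in limma on log2(FPKM + 1) (-0.11 with and -0.11 without a filter) and log2(FPKM + 0.1) (-0.12). With 1 library left out, values crossed 0 for Os900 (-2.55 to 1.30), D3 (-0.035 to 0.18), SMAX1 (-0.44 to 0.025), D14L (-0.048 to 0.14), IPA1 (-0.092 to 0.70), ZISO (-0.15 to 0.15), LCYb (-0.17 to 0.12), SPX1 (-0.15 to 0.44), SPX3 (-1.86 to 0.042) and NPF4.5 (-3.06 to 0.18). The cause was not tested. Of 197 comparisons of 14 named genes with an alternative, 178 kept direction and side of the threshold. Most were of genes not called in the main fit, for which staying outside the threshold says little. The 7 comparisons that lost a call were all of DXS3, the gene among them called in the main fit, out of its 14 alternatives. Replicate numbers are in the labels, but nothing says that they mark a shared tank or day. Deviations from group means correlated at 0.15, 0.26 and -0.24 between same-numbered libraries, and neither WT replicate 1 nor the library labelled WT replicate 3 correlated best with its own number. The replicate block gave D10 a log2 value of 2.09 (adjusted p = 0.15) and DXS3 one of 4.33 (adjusted p = 0.083). Low counts limit D10, D17, Os900, NSP1, NSP2, OsCKX9 and ZAS: D10 rests on 11 to 19 counts per WT library, and OsCKX9 on 4 to 14.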
